A study of Mus musculus with 11 samples.

Results

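Kidneys of Col4a3-/- mice given PBS (KO, n = 4 libraries) were compared locus by locus with kidneys of Col4a3+/- mice given PBS (HET, n = 3 libraries). These are 7 of the 11 whole-kidney mRNA libraries in a series on a miR-21 inhibitor in the Col4a3 mouse model of Alport syndrome, and they were picked by title and genotype alone, with no measured value. Both groups were of strain 129X1/SvJ and 5.5 weeks old. The other 4 libraries, from Col4a3-/- mice given antimiR-21, were compared with neither group but took part in joining names, filtering, scaling and estimating the spread between libraries. HET mice carry a disrupted allele themselves, so neither group is wild type. The labels give neither the construction of the knockout allele nor sex, litter or PBS schedule. They call the libraries replicates without saying that each is a separate mouse, so p-values measure the spread between these samples, part of which may be technical.

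Type IV collagen is the scaffold of basement membranes, and in the glomerular filter the mature network is built from the Col4a3, Col4a4 and Col4a5 chains together. Loss of any of these chains in Alport syndrome leaves a filter that splits and leaks protein. The later disease is known for injured tubules, leukocytes in the interstitium and scarring by fibroblasts.

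Levels are given in CPM, counts relative to the total of the library, which was scaled by TMM to allow for differences in RNA composition. CPM is not divided by transcript length, so it compares a gene between libraries but not a gene with another gene. Total counts were 19.9 to 39.7 M per library. Pairs of names with identical counts in every library were joined and count as 1 locus, named with a slash, whose reads belong to either or both of its genes. The protocol does not mark strand, so overlapping and antisense genes share reads in the same way. Col4a3 and Col4a4, which share a promoter region on opposite strands, are joined in this way. It read 870.1, 1053 and 1271 CPM in HET and 743, 607, 953 and 997 CPM in KO, with overlapping ranges, and it does not check the genotype. Markers of each nephron segment and of podocytes were present in every library, and 0 of the 15 podocyte and 0 of the 17 proximal tubule loci in the files were at 0 in all 7 libraries. Libraries HET 2, HET 3, KO 3 and KO 4 had reads of the Y-linked gene Ddx3y (92.7 to 109 CPM) and the others had almost none (0 to 0.172 CPM).

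Of 14380 loci tested, 0 passed an adjusted p of 0.05 in edgeR's quasi-likelihood test in either direction (0% higher, 0% lower). At an unadjusted p under 0.05 edgeR found 606 loci higher in KO (4.21%) and 392 lower (2.73%). DESeq2 called 72 loci higher and 12 lower on the same counts, limma-voom called 0 and 0, and limma on the authors' log2 matrix called 1 higher and 0 lower. Loci in which the groups did not overlap numbered 510 with every KO library above every HET library (3.55%) and 462 with every KO library below (3.21%). That balance depended on the scaling: by library size alone the counts were 830 and 191, and with the 7 libraries processed by themselves 564 and 380. With groups of 3 and 4 libraries, chance alone separates a share of loci not far below the 3.55% and 3.21% found. Leaving out a library raises the share that chance gives. Because no locus passed the adjusted test, the loci below are ranked and described by their values, and lack of overlap is not a call.

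Ranking was done among the 12355 loci with a mean of at least 1 CPM over the 7 libraries, of which 423 lay entirely higher in KO (3.42%) and 418 entirely lower (3.38%). Under this scaling the counts were close, and the sizes of the differences were not. Among the higher loci the median difference was 0.53 on the log2 scale, 87 differed by at least 2-fold and 14 by at least 4-fold. Among the lower loci the median size of the difference was 0.23, 6 differed by at least 2-fold and 0 by at least 4-fold. The gap between groups, that is the lowest KO value over the highest HET value or the reverse, reached 2-fold in 10 higher loci and 1.5-fold in 0 lower loci. Levels also varied more among the higher loci: their median coefficient of variation was 14% over KO and 13% over HET libraries, against 6.51% and 6.08% for the lower loci.

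**Figure D1:**
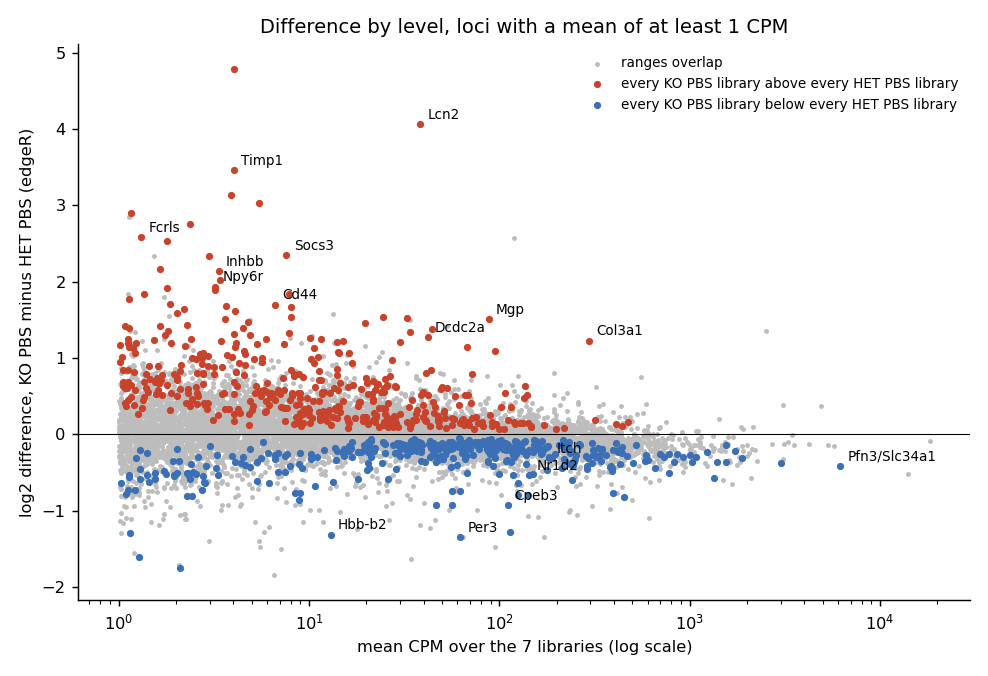
The log2 difference between KO and HET (vertical axis, edgeR) is plotted against the mean level in CPM over the 7 libraries (horizontal log axis) for 12355 loci, with red points for the 423 loci entirely higher in KO and blue points for the 418 entirely lower. Large differences lie above the line at low to middle levels, with Lcn2 at 4.07, while blue points crowd close below the line at middle and high levels.

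The locus with the smallest p was Npy6r, a receptor of the neuropeptide Y family on chromosome 18 (GRCm38, 44270127 to 44277700). It read 1.12, 1.43 and 1.11 CPM in HET and 4.41, 3.41, 4.85 and 6.13 CPM in KO, a log2 difference of 1.94 ± 0.246 (SE; edgeR adjusted p = 0.076). Every KO library was at least 2.39 times the highest HET library, and the HET values lay close together. Fcrls, an Fc receptor-like scavenger receptor known from microglia, stood at 0.343, 0.384 and 0.267 CPM in HET and at 3.30, 2.10, 1.76 and 1.01 CPM in KO (2.58 ± 0.423, adjusted p = 0.247 in edgeR). Its counts were low, from 6 to 13 reads in HET and 25 to 72 in KO. Inhbb, which encodes the beta B subunit of activins and inhibins (chromosome 1, 119415465 to 119422248), read 1.76, 0.823 and 0.844 CPM against 6.61, 4.46, 4.76 and 4.19 CPM. With Y-linked status as a covariate these 3 loci were the ones that passed in edgeR, with adjusted p of 0.0216 for Npy6r, 0.0216 for Inhbb and 0.0432 for Fcrls.

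Adamts4, a secreted protease that cuts proteoglycans such as aggrecan and versican, read 1.29, 1.10 and 1.33 CPM in HET and 6.38, 3.61, 4.67 and 5.47 CPM in KO, a difference of 2.02. Dcdc2a, a doublecortin-domain protein of primary cilia, read 21.5, 18.5 and 29.7 against 74.3, 51.0, 47.3 and 51.7 CPM. KO 1 stood well above the other KO libraries for Dcdc2a, yet the lowest KO library still cleared the HET range. Smaller but tight differences were seen for Acpp, an acid phosphatase that also makes adenosine (17.3 ± 0.912 against 25.8 ± 2.54 CPM; SD, n = 3 and n = 4), and for Nfkbie, an inhibitor of NF-kB (6.25 ± 0.325 against 10.8 ± 2.06 CPM). Hk2, the inducible hexokinase that starts glycolysis in stressed cells, stood at 0.813 ± 0.219 CPM in HET and 2.64 ± 0.895 CPM in KO. Cd276, an immune checkpoint ligand, differed by 1.16 on the log2 scale and Medag, a gene of adipocyte differentiation, by 1.77. Over the 20 higher loci with the smallest p, edgeR's adjusted p ran from 0.076 to 0.368. Of the 20, 10 were too low in level for the alternative at a mean of at least 5 CPM. In each of the 22 alternatives that tested it, every one of the 20 kept its sign and an unadjusted p under 0.05. The 20 were chosen from these same libraries by p and lack of overlap, which largely fixed that outcome in advance.

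**Figure D2:**
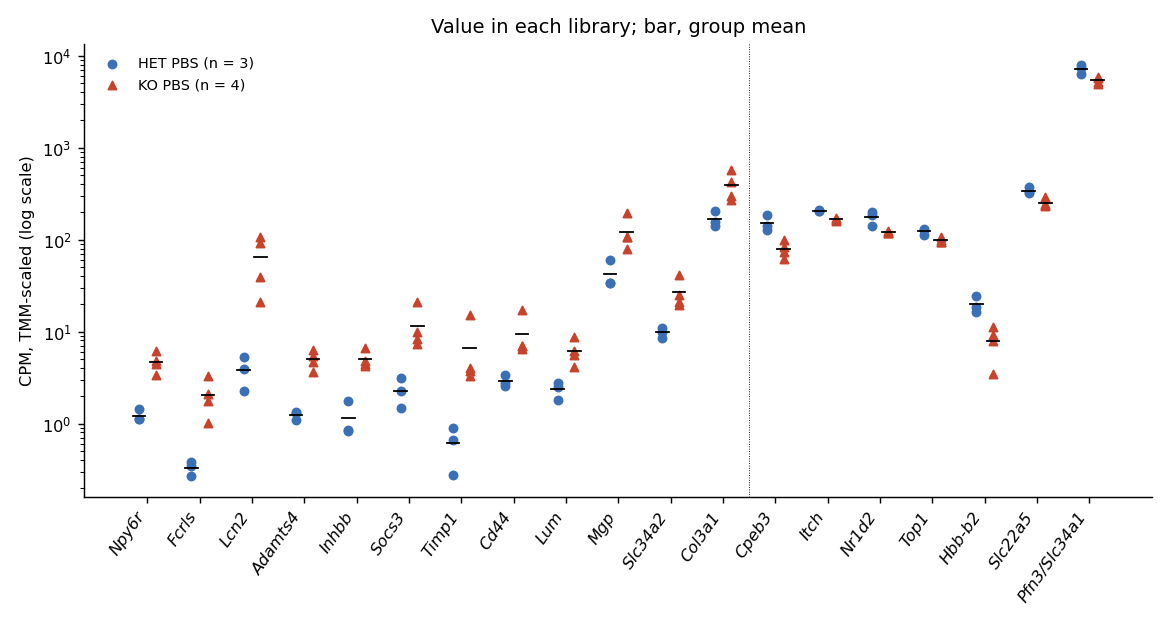
CPM on a log axis is plotted for each HET library (blue circles, n = 3) and each KO library (red triangles, n = 4), with a bar at the group mean, for 12 higher loci left of the dotted line and 7 lower loci right of it. In each of the 19 loci the symbols of the groups do not overlap, and the distance between groups is wider for Lcn2 and Timp1 than for Itch and Top1. Cpeb3 stands here for the joint locus A330032B11Rik/Cpeb3.

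Promoter stretches of 6 ranked or listed genes are shown here because their groups did not overlap and the stretch holds a motif of a factor whose pathway is described below. Motifs were searched on both strands in RefSeq promoters of GRCm38.p6, from 250 bases before to 50 after each start. Capitals mark the motif. The kB site is bound by NF-kB, TTCNNNGAA by STAT proteins, the CArG box by serum response factor, the E-box CACGTG by clock factors among others, and the D-box TTATGNAA by Dbp, Tef, Hlf and Nfil3. In Coq10b the D-box is read on the opposite strand. The capitals in Cxcl1 merge 2 overlapping kB matches, and no other motifs shown overlap.
Cxcl1 kB site, chr5:90891164-90891193, plus strand: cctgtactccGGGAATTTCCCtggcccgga
Nfkbie kB site, chr17:45555584-45555613, plus strand: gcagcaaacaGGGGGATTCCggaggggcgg
Socs3 STAT site, chr11:117969502-117969531, minus strand: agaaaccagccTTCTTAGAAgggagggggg
Egr2 CArG box, chr10:67537484-67537513, plus strand: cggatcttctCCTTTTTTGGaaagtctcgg
Per3 first D-box, chr4:151044852-151044881, minus strand: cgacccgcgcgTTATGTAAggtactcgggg
Per3 second D-box, chr4:151044805-151044834, minus strand: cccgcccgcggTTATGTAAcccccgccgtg
Coq10b E-box, chr1:55052680-55052709, plus strand: ggcggcactggaCACGTGcgtcagcctagc
Coq10b D-box, chr1:55052597-55052626, plus strand: cgtcacgaagaTTACATAAgtggcagactc
Of all 32851 promoter windows, 6.93% held a kB site, 8.30% the STAT motif, 1.63% a CArG box, 7.15% the E-box and 3.39% the D-box. A match describes letters in the window, not binding. Promoters were matched for 26 of 30 single loci of the acute-phase list, 8 of which held the STAT motif (30.8%, against 9.55% of 27025 genes), and for 23 of 28 of the clock list, 7 of which held the E-box (30.4%, against 8.09%). Among single loci tested, 7815 of 12878 had a promoter in the table, and 8.52% of those held the STAT motif and 11.3% the E-box. The shares in both lists follow from which genes the lists name and do not describe the difference between KO and HET. Most of the members with a motif overlapped between groups, and Socs3 was the 1 of 8 and Coq10b the 1 of 7 that did not. For the other lists and for the ranked loci under 80% had a promoter in the table, so that comparison was void for them.

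Genes of the acute-phase and STAT3 response were among the widest differences. This response is driven by cytokines of the interleukin-6 family through the receptor partner gp130. Lcn2, which encodes the secreted siderophore-binding protein NGAL of injured tubules (chromosome 2, 32384633 to 32388252), read 5.24, 3.95 and 2.27 CPM in HET and 106, 21.1, 90.8 and 39.0 CPM in KO. The difference was 4.07 ± 0.628 on the log2 scale. KO values spread widely among themselves, and even the lowest was 4.04 times the highest HET value. Socs3, the feedback inhibitor of STAT3 signalling whose promoter stretch is shown above, read 3.09, 2.25 and 1.47 CPM against 20.9, 8.27, 7.40 and 9.78 CPM. Serpina3m/Serpina3n, protease inhibitors from a multigene cluster whose members may share reads, read 1.37, 1.37 and 0.400 CPM against 18.4, 3.71, 6.52 and 6.40 CPM.

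Some upstream members of the same response stood apart between groups and others did not. The cytokine Il11 read 0.172, 0.110 and 0.267 CPM in HET and 1.65, 0.451, 1.32 and 0.621 CPM in KO, from 3 to 5 reads in HET libraries. Another ligand of the family, Lif, read 1.46, 1.10 and 0.889 CPM in HET and 5.32, 2.40, 2.64 and 2.10 CPM in KO. Osmr, the oncostatin M receptor, read 13, 6.92 and 5.95 CPM against 27.3, 14.5, 16.7 and 21.3 CPM, and Stat3 itself differed by 0.48 on the log2 scale. The gene of gp130, Il6st, overlapped between groups with a difference of -0.08, as did the receptors Lifr (0.02) and Il6ra (0.46). Of the 34 tested members of the list, 8 lay entirely higher in KO and 0 lower (23.5% and 0.0%, all loci 3.55% and 3.21%). The median log2 difference was 0.50 against -0.015 over all loci tested. The complement component C3 did not separate the groups, with 51.9, 17.5 and 24.4 CPM in HET and 486, 132, 49.5 and 77.3 CPM in KO, since KO 3 lay below HET 1. Without KO 1, 9 of 33 members lay entirely higher (all loci tested, 4.05%) and the median was 0.29.

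Many of the ranked loci encode proteins of the extracellular matrix. Timp1, an inhibitor of matrix metalloproteases on the X chromosome (20870166 to 20874735), read 0.901, 0.274 and 0.667 CPM in HET and 15.3, 3.71, 3.26 and 4.04 CPM in KO (log2 difference 3.46 ± 0.638). KO 1 stood far above the other KO libraries, and those were still at least 3.62 times the highest HET library. D030025P21Rik/Ltbp2, which holds a latent TGF-beta binding protein of elastic microfibrils, read 0.901, 0.439 and 0.844 CPM against 13.8, 2.86, 3.70 and 4.85 CPM. Mgp, a vitamin K-dependent inhibitor of calcification, read 60.5, 33.8 and 33.9 CPM against 195, 106, 79.6 and 106 CPM. Lum, a small leucine-rich proteoglycan of collagen fibrils, read 2.75, 1.81 and 2.49 CPM against 8.72, 6.21, 4.14 and 5.51 CPM, and Dpt, another fibril-binding protein, 8.33, 7.08 and 8.18 CPM against 18.3, 11.9, 11.9 and 13.6 CPM. Cd44, the receptor for hyaluronan that injured tubules and parietal cells switch on, stood at 3.35, 2.58 and 2.76 CPM in HET and 17.2, 6.91, 6.52 and 6.95 CPM in KO.

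Of 61 tested genes of elastic fibres, link proteins and proteoglycans, 14 lay entirely higher in KO and 2 lower (23.0% and 3.28%), and 21 had an unadjusted edgeR p under 0.05 in the higher direction. The microfibril genes Mfap2, Mfap4 and Mfap5 differed by 1.05, 1.19 and 1.38 on the log2 scale, the fibulin Fbln1 by 1.06, the elastin cross-linking enzyme Loxl1 by 1.07 and Fbn2, a fibrillin, by 1.35. Lower in KO were the hyaluronan link protein Hapln1 (1.44 ± 0.182 against 0.837 ± 0.129 CPM) and the keratan sulfate proteoglycan Omd, with a difference of -0.54. Without KO 1 the list had 14 higher and 2 lower loci (all loci tested, 4.05% each way), and its median went from 0.30 to 0.17. Among proteases and inhibitors of matrix, 4 of 34 loci lay entirely higher and 1 lower (11.8% and 2.94%, all loci 3.55% and 3.21%). Mmp12, the elastase of macrophages, read 1.63, 1.92 and 2.04 CPM in HET and 10.7, 3.56, 3.35 and 5.28 CPM in KO, and the secreted protease Htra3 differed by 1.05.

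Fibrillar collagens split by type. Col3a1, the main collagen of soft reticular matrix, read 204, 156 and 141 CPM in HET and 574, 269.6, 296 and 423 CPM in KO, and Col1a1, the main collagen of scar, 61.7, 56.9 and 53.8 CPM against 183, 75.0, 92.6 and 139 CPM. Their groups did not overlap, and neither did those of Col5a2 (0.80) or Col12a1 (0.73). In the other direction, Col27a1 read 305, 371 and 334 CPM in HET and 254, 198, 275 and 282 CPM in KO, and Col24a1 and Col11a2 differed by -0.59 and -0.50. Of the 24 tested members, 4 were thus entirely higher and 3 entirely lower (16.7% and 12.5%, all loci 3.55% and 3.21%). The basement membrane list gave 1 higher and 1 lower of 36 loci, a share near that of all loci, and 8 higher and 2 lower without KO 2 (22.2% higher, all loci 6.86%). KO 2 was picked after these counts were seen. The type IV chains themselves overlapped between groups, with log2 differences of 0.20 for Col4a1/Col4a2, -0.37 for Col4a3/Col4a4 and 0.02 for Col4a5.

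The marker list of fibroblasts, mesangium and smooth muscle shares members with the matrix lists, so its values are not independent of those above. Of 16 tested markers, 15 were positive and 6 lay entirely higher in KO (37.5%, all loci 3.55%, median 0.61), the 6 being Lum, Dpt, Col3a1, Postn, Col1a1 and Acta2. Their summed level was 470 to 710 CPM in HET and 733 to 1287 CPM in KO, with 0 of the 16 at 0 in all 7 libraries, and KO 1 held the highest sum. The median was 0.40 without KO 1. In whole kidney, more cells of a type and more RNA per cell cannot be told apart, and the part of cell number in the matrix differences was not tested.

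Some loci of transforming growth factor relatives and their binding proteins also lay entirely higher in KO. In the list of BMP, activin and GDF signalling 6 of 44 loci lay entirely higher (13.6%, all loci 3.55%) and 0 lower. Over the whole list 24 loci were positive and 20 negative, with a median of 0.03. Inhba, the beta A subunit of activin, differed by 1.42 at levels under 1 CPM, and the BMP antagonist Nog by 1.16. Fstl3/Prss57, which holds an activin-binding follistatin relative, read 10.7, 8.67 and 8.09 CPM in HET and 13.8, 12.5, 11.6 and 15.9 CPM in KO. The stress cytokine Gdf15 differed by 0.46, with 5.06, 5.46 and 5.78 CPM against 8.17, 8.17, 7.40 and 6.09 CPM.

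Chemokines, which draw leukocytes into tissue, had the largest share of non-overlapping loci among the 57 pathway lists. Of 32 tested chemokine and receptor loci, 12 lay entirely higher in KO and 0 lower (37.5% and 0.0%), with a median of 0.85, and 14 had an unadjusted edgeR p under 0.05. All 12 were ligands. The neutrophil attractant Cxcl1, with the kB site shown above, read 1.03, 1.65 and 1.02 CPM in HET and 9.04, 3.56, 2.33 and 3.65 CPM in KO (log2 difference 1.89 ± 0.428). Cxcl2, which acts on the same receptor, differed by 1.67 and Cxcl5 by 3.98. Both rest on very few reads, 1, 10 and 3 in HET against 19, 11, 7 and 11 in KO for Cxcl2 and 0, 1 and 2 against 37, 9, 13 and 16 for Cxcl5. The same holds for the eosinophil attractant Ccl11 (2, 1 and 1 reads against 11, 6, 20 and 6) and the monocyte attractant Ccl7 (3, 1 and 1 reads against 22, 4, 13 and 5).

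Attractants of monocytes and T cells followed the same order of groups. The monocyte attractant Ccl2 read 0.472, 0.659 and 1.60 CPM in HET and 9.0, 4.71, 1.85 and 2.60 CPM in KO, with a narrow gap between HET 3 and KO 3. Cxcl10, an interferon-induced attractant of T cells, read 4.38, 3.02 and 4.18 CPM against 19.0, 13.6, 5.15 and 7.03 CPM, and Ccl5, another T-cell attractant, 1.89, 1.32 and 1.69 CPM against 11.2, 4.91, 1.94 and 2.79 CPM. In most of these KO 3 lay nearest to the HET range and KO 1 farthest from it. Ccl6, Ccl7, Ccl9, Cxcl14 and the membrane-bound Cx3cl1 completed the 12, with log2 differences of 0.99, 2.71, 1.64, 0.99 and 0.41. Without KO 1, 11 of 29 loci lay entirely higher with a median of 0.54, beside 4.05% of all loci tested in that set of libraries.

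Adhesion molecules that leukocytes use to leave vessels stood next to the chemokines, with 8 of 25 loci entirely higher and 0 lower (32.0%, median 0.29). Vcam1, the endothelial and tubular ligand of lymphocyte integrins (chromosome 3, 116109949 to 116129688), read 23.9, 10.2 and 13.2 CPM in HET and 85.4, 39.3, 25.6 and 31.0 CPM in KO. Icam1 differed by 0.56, and the myeloid integrins Itgam and Itgax by 0.98 and 1.10. Without KO 1 the count was 8 of 25 (all loci tested, 4.05%) with a median of 0.16. Among Fc receptors and C-type lectins 4 of 30 loci lay entirely higher (13.3%, all loci 3.55%), with a median of 0.49, and 0.25 without KO 1. They included Mgl2, a lectin of macrophages and dendritic cells, at 3.22, 3.13 and 4.35 CPM against 22.0, 10.6, 6.78 and 5.90 CPM, and Trem2, a lipid receptor of macrophages, with a difference of 0.84.

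Macrophage and monocyte markers were positive in 18 of 18 tested loci (median 0.68), and 3 of them, Cd14, Lyz2 and Itgam, did not overlap between groups (16.7%, all loci 3.55%). The summed level was 316 to 406 CPM in HET and 397 to 591 CPM in KO, so the sums overlapped. Without KO 1 the median was 0.38 and loci with an unadjusted edgeR p under 0.05 went from 9 to 5. Without HET 1, which had the highest HET sum, 16 of 18 lay entirely higher, beside 11.9% of all loci tested in that set of libraries. HET 1 was singled out by the level of these same markers, so that count follows in part from the choice. Among T and NK cell markers 9 of 10 tested were positive and 1 did not overlap, and of neutrophil and B or plasma cell markers 0 lay entirely higher (5 and 6 tested). The part of leukocyte number in the chemokine and adhesion results was not tested.

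**Figure D3:**
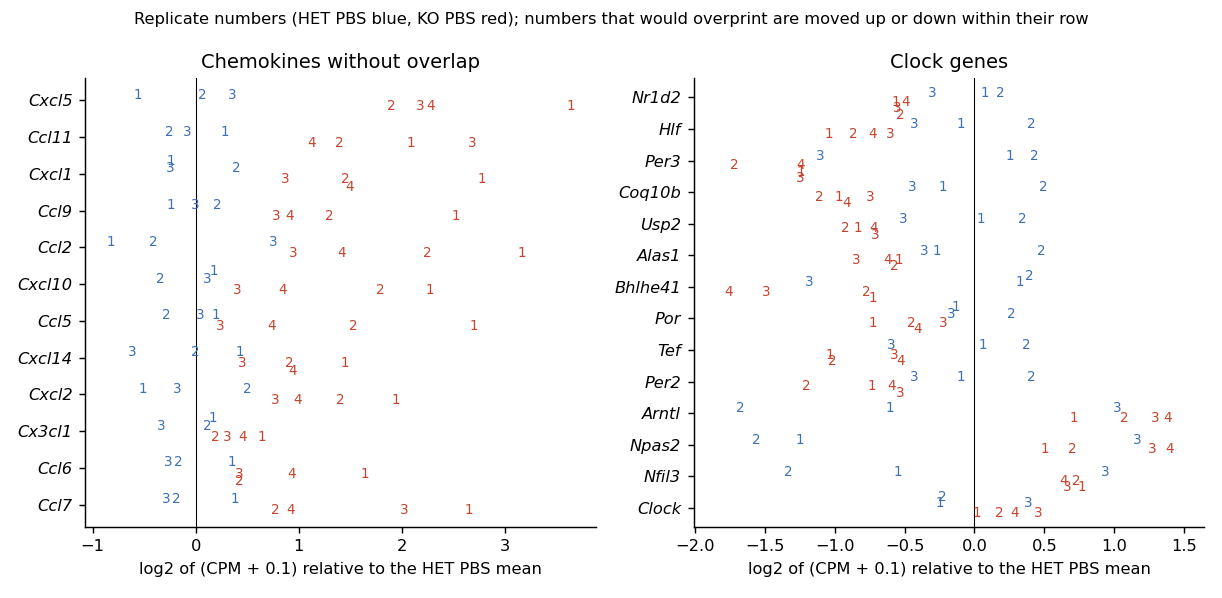
Each digit is the replicate number of a library, HET in blue and KO in red, for 12 chemokines (left) and 14 clock genes (right). Digits are placed at log2 of CPM plus 0.1, minus log2 of the HET mean CPM plus 0.1. On the left every red digit lies right of every blue digit in its row, with KO 1 farthest right in 11 of the 12 rows. On the right HET 3 is the blue digit farthest toward the KO side in each of the 14 rows.

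Components of Toll-like receptor and NF-kB signalling, which switch on many of these chemokine genes, gave 7 of 54 loci entirely higher and 1 lower (13% and 1.85%, median 0.20). Cd14, the co-receptor for bacterial lipid and a macrophage marker as well, read 8.07, 6.09 and 5.2 CPM in HET and 27.8, 10.9, 10.6 and 12.2 CPM in KO. Feedback inhibitors lay on the same side, with Nfkbie at 5.88, 6.48 and 6.40 CPM against 13.9, 10.4, 9.78 and 9.32 CPM and Tnfaip3 at 11.2, 9.99 and 9.51 CPM against 19.6, 13.5, 11.5 and 15 CPM. The transcription factor subunit Relb differed by 0.67 and Rela by 0.18. Tnfrsf21, a death receptor, was the member entirely lower, at 557, 590 and 414 CPM against 375, 330, 228 and 283 CPM.

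Immediate early transcription factors, which cells switch on within minutes of growth factor or stress signals, gave 7 of 28 loci entirely higher and 0 lower (25%, median 0.31). Egr2, with a CArG box shown above, read 0.343, 0.220 and 0.178 CPM in HET and 3.35, 0.802, 1.23 and 2.02 CPM in KO, a difference of 2.89 ± 0.558 on 3 to 8 reads per HET library. Egr1 read 7.21, 4.5 and 5.29 CPM against 17.6, 13.6, 9.34 and 13.4 CPM, and Fos, a subunit of AP-1, 1.37, 0.494 and 0.978 CPM against 4.04, 2.71, 1.98 and 2.56 CPM. In all 3 genes each KO library was above the HET range, with KO 1 highest. Maff, Atf3, Nr4a1 and Srf completed the 7 with differences of 0.64, 0.93, 0.79 and 0.18. Without KO 1 the count was 8 of 28 (all loci tested, 4.05%) and the median 0.22.

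Genes of the actin cytoskeleton and of serum response factor targets gave 6 of 46 loci entirely higher and 0 lower (median 0.20). The tropomyosins Tpm1, Tpm2 and Tpm4 differed by 0.52, 0.59 and 0.36, the smooth muscle actin Acta2, a myofibroblast marker, by 0.61 and the actin nucleation subunit Arpc1b by 0.51. Annexins and S100 proteins, calcium-binding proteins of membranes and stress, gave 5 of 19 and 0 (26.3% and 0.0%). Anxa3 read 20.2, 18.1 and 18.8 CPM in HET and 45.1, 32.7, 24.0 and 27.0 CPM in KO, and S100a4 read 2.23, 2.28 and 2.22 CPM against 5.32, 3.56, 2.82 and 3.80 CPM. HET libraries were nearly equal for both. YAP and TAZ targets gave 3 of 28 entirely higher (10.7%), including Ankrd1 at 3.28 ± 0.584 CPM in HET and 7.87 ± 3.24 CPM in KO.

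Keratins of injured or simple epithelium lay on the same side in 2 of 11 tested loci (18.2%, all loci 3.55%). Krt20, a keratin of urothelium and of damaged tubules, read 0.601, 0.823 and 0.622 CPM in HET and 6.61, 1.40, 1.32 and 1.16 CPM in KO, so most of its mean difference came from KO 1. Krt8, which has many pseudogenes that can take its reads, read 106, 117 and 111 CPM against 139, 119.6, 121 and 119.8 CPM. Developmental nephron genes gave 4 of 34 entirely higher and 2 lower (11.8% and 5.88%, all loci 3.55% and 3.21%). Sox9, a factor of tubular repair, was among the higher ones at 0.901, 0.329 and 0.667 CPM against 2.34, 1.15, 1.01 and 1.40 CPM. Hnf4a, which drives the proximal tubule programme, was entirely lower with a difference of -0.30. Among coagulation and plasminogen genes 5 of 31 lay entirely higher (16.1%), and F13b was the member entirely lower (-0.31).

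Podocyte markers gave 4 of 15 tested loci entirely higher and 0 lower (26.7% and 0.0%, all loci 3.55% and 3.21%, median 0.23). Cdkn1c, the cell cycle inhibitor p57 of mature podocytes, read 37.5, 29.1 and 23.6 CPM in HET and 63.9, 62.8, 43.4 and 45.3 CPM in KO, and the intermediate filament gene Nes read 42.7, 33.0 and 38.6 CPM against 75.0, 51.2, 51.3 and 56.3 CPM. The summed level of the list overlapped, at 1014 to 1561 CPM in HET and 1292 to 1871 CPM in KO.

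Calcium, magnesium and phosphate handling had loci on both sides, 4 of 37 entirely higher and 2 entirely lower (10.8% and 5.41%, all loci 3.55% and 3.21%). Slc34a2, a sodium-phosphate cotransporter best known from lung and gut (chromosome 5, 53038081 to 53071664), read 11, 8.62 and 9.78 CPM in HET and 41.6, 19.6, 25 and 21.2 CPM in KO (1.46 ± 0.312). Its relative Slc34a1, the main phosphate transporter of the proximal tubule, is counted here with Pfn3 and lay on the other side, at 6321, 8007 and 7280 CPM against 4967, 5215, 5821 and 5659 CPM (-0.41 ± 0.121). The calcium channel Trpv6 read 2.32, 1.65 and 1.33 CPM against 6.79, 3.01, 6.08 and 4.27 CPM, and the stanniocalcins Stc1 and Stc2, hormones of calcium and phosphate balance, differed by 1.08 and 0.85. The vitamin D receptor Vdr read 351, 364 and 386 CPM in HET and 268, 299.6, 333 and 292 CPM in KO.

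Loci entirely lower in KO differed by small amounts, many with little spread. The ubiquitin ligase Itch (chromosome 2, 155133509 to 155226855) read 204, 209 and 206 CPM in HET and 161, 166, 171 and 165 CPM in KO, a log2 difference of -0.32 ± 0.0722 (edgeR adjusted p = 0.371). Top1, the topoisomerase that relaxes DNA ahead of transcription, read 112, 131 and 128 CPM against 93.8, 98.6, 106 and 95.2 CPM. A330032B11Rik/Cpeb3, which holds an RNA-binding regulator of translation, read 141, 185 and 128 CPM against 72.9, 62.0, 100.1 and 82.5 CPM and had the smallest p among lower loci (-0.93 ± 0.175, edgeR adjusted p = 0.295). Dpf3, a reader subunit of chromatin remodelling complexes, stood at 8.18 ± 0.192 CPM in HET and 5.81 ± 0.421 CPM in KO, and Mtss1, which bends membranes over actin, at 211 ± 28.5 and 153 ± 11.5 CPM. Fam73b, Bcas3, Rdh18-ps, Phtf2 and Epb4.1/Tmem200b differed by -0.28, -0.36, -0.59, -0.38 and -0.38. Over the 20 lower loci with the smallest p, edgeR's adjusted p ran from 0.295 to 0.508. Each kept its sign and an unadjusted p under 0.05 in all 22 alternatives that tested it (1 of the 20 was not tested at a mean of at least 5 CPM). As for the higher loci, the way they were chosen largely fixed that outcome in advance.

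Some of the lower loci encode enzymes and transporters of the proximal tubule, whose share among all lower loci was not counted. Slc22a5, the carnitine transporter, read 378, 329 and 318 CPM in HET and 232, 292, 236 and 242 CPM in KO, and Aspa, which cleaves acetylaspartate, 154, 208 and 179.9 CPM against 90.5, 132, 141 and 139 CPM. Dpyd, which starts pyrimidine breakdown, differed by -0.35 and Ddo, the D-aspartate oxidase, by -0.31. Of 17 tested proximal tubule markers, 16 were negative and 4 lay entirely lower (23.5%, all loci 3.21%), namely Pfn3/Slc34a1, Ano3/Slc5a12, Slc13a3 and BC017158/Slc5a2. Their summed level was 33769 to 52626 CPM in HET and 25882 to 41711 CPM in KO, with 0 of 17 at 0 in all 7 libraries, and the part of tubule mass in these differences was not tested.

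Further transport and metabolic lists had some loci entirely lower and medians nearer 0. Among 32 glucose and monocarboxylate transporters 3 lay entirely lower (9.38%), among 22 tryptophan and NAD genes 3 (13.6%) and among 47 organic anion and cation transporters 3 (6.38%, all loci 3.21%). Their medians were -0.11, -0.09 and -0.23 (the last -0.10 without HET 2). UDP-glucuronosyltransferases and sulfotransferases were negative in 24 of 26 tested loci (median -0.35) but only 1 lay entirely lower (3.85%). Of 69 sodium, potassium and chloride channel and pump loci, 6 lay entirely lower and 2 higher (8.70% and 2.90%), with a median of 0.003. Atp1b1/Nme7, which holds the beta subunit of the sodium pump, read 3517, 3831 and 3030 CPM in HET and 2623, 2810, 2555 and 2681 CPM in KO. The chaperones Hspa8 and Hsph1 were the 2 of 28 heat shock loci entirely lower (7.14%), Hspa8 at 866, 1117 and 825 CPM against 658, 808, 600.0 and 571 CPM. Scaling by library size alone, which lifts the median of all loci by 0.096, turned the medians of the tryptophan and NAD list (0.0088) and of the heat shock list (0.018) positive.

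Clock genes had the largest share of loci entirely lower among the 57 pathway lists, 8 of 33 tested (24.2%) with 0 higher and a median of -0.31. The daily clock runs through activators Arntl, Clock and Npas2, which drive repressors of the Per, Cry and Nr1d families and output factors such as Dbp, Tef and Hlf, and the activators peak opposite to these targets. Nr1d2, the nuclear receptor REV-ERB beta, read 183, 198 and 141 CPM in HET and 118, 121, 119 and 124 CPM in KO. Per3, with both D-boxes shown above, read 114, 129 and 44.4 CPM against 40.3, 29.0, 40.4 and 40.3 CPM, and Hlf read 155, 219 and 123 CPM against 80.4, 90.7, 109 and 99.8 CPM. Coq10b, a coenzyme Q chaperone listed as a clock output, read 54.7, 90.0 and 46.9 CPM against 32.6, 29.5, 38.1 and 33.8 CPM. Usp2, Alas1, Por and Per2 completed the 8 with differences of -0.80, -0.64, -0.44 and -0.74.

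Genes of the opposite phase did not separate the groups, because HET 3 stood with the KO libraries. Arntl read 7.64, 3.57 and 23.7 CPM in HET and 19.1, 24.5, 28.7 and 30.6 CPM in KO. Npas2 read 4.12, 3.29 and 22.4 CPM against 14.1, 16.2, 24.1 and 26.3 CPM, and Nfil3 read 3.52, 2.0 and 10.04 CPM against 8.90, 8.67, 8.28 and 8.15 CPM. For Per3, HET 3 lay just above the KO libraries, and for the outputs Tef (569.7, 705 and 362 CPM against 266, 269.6, 366 and 378 CPM) and Bhlhe41 it lay among them. Without HET 3, 14 of 33 loci lay entirely lower and 6 entirely higher (all loci tested, 6.97% and 9.13%). HET 3 was singled out by these same genes, so the rise follows in part from that choice. Without KO 1 the counts were 10 and 1 (all loci tested, 4.05% each way). Without HET 2, 9 lay entirely lower (all loci tested, 4.31%), the median was -0.18 and lower loci with an unadjusted edgeR p under 0.05 went from 13 to 3. The labels give no time of day of collection, and its part in these differences was not tested.

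Erythroid and haem genes gave 5 of 21 loci entirely lower and 0 higher (23.8%, median -0.12). The beta-globin Hbb-b2 read 18.4, 24.5 and 16.3 CPM in HET and 3.49, 7.92, 11.2 and 9.08 CPM in KO, and the alpha-globin Hba-a1 read 1.72, 1.87 and 1.24 CPM against 0.230, 0.601, 0.617 and 0.272 CPM. Globin copies are near-identical and can split reads. Beta-s, another beta-globin locus outside the list, read 171, 214 and 129 CPM against 39.8, 57.3, 99.3 and 85.3 CPM. Alas2/Tmem29, which holds the haem synthesis enzyme of red cell precursors, read 29.4, 35.2 and 31.0 CPM against 18.5, 18.3, 23.1 and 25.2 CPM. Alas1, the haem synthesis enzyme of other cells and a clock output, was also entirely lower. The part of blood left in the tissue was not tested.

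**Figure D4:**
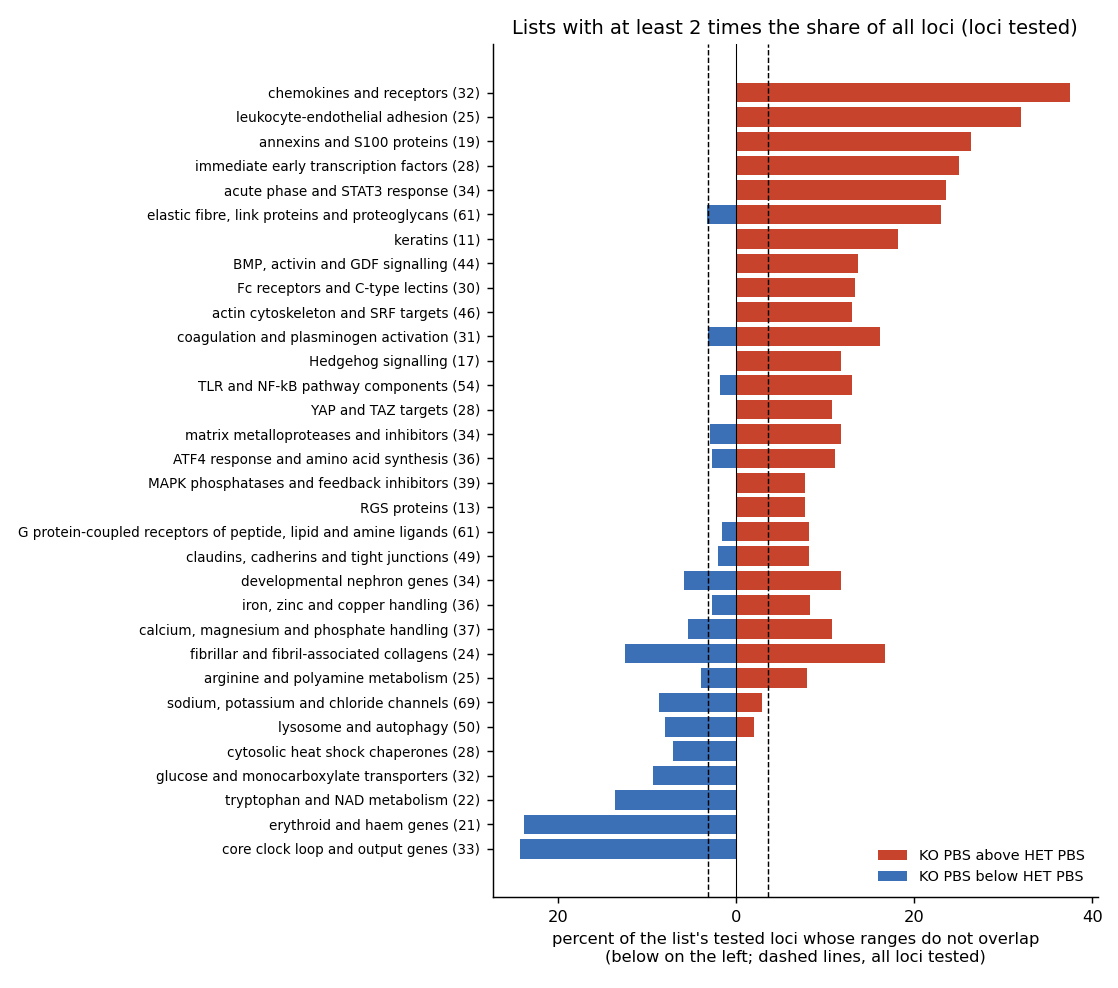
Bars give the percent of each list's tested loci (number in brackets) that lay entirely higher in KO (red, to the right) or entirely lower (blue, to the left), for the 32 of 57 pathway lists with at least 2 times the share of all loci, which the dashed lines mark at 3.55% and 3.21%. Chemokines reach 37.5% on the right and clock genes 24.2% on the left.

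Gene families were also built from shared symbol stems, without reference to pathways, giving 151 families of at least 10 tested loci. They were ranked by the share of loci entirely higher or lower, so some small families reach high shares by the ranking alone. The Ccl family led the higher side with 6 of 12 loci entirely higher (median 1.40), the same Ccl loci already counted in the chemokine list. Stx syntaxins, which fuse vesicles, and Sox factors followed with 3 of 13 each, but their medians of 0.00 and 0.10 were near that of all loci. Shares of 16.7% were tied among Krt, Ly, Pcdhb and Sema genes. On the lower side Zcchc zinc-finger genes had 3 of 13 and Aldh aldehyde dehydrogenases 3 of 18, with 14 of the 18 negative. The large Slc family of transporters had 12 of 275 loci entirely lower and 4 higher (4.36% and 1.45%), with 183 of 275 negative. The lower share was near the 3.21% of all loci, and the higher share was below their 3.55%.

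Several processes often examined in injured kidney had shares near or below those of all loci over the 7 libraries, and some of these shares rose when 1 HET library was left out. Mitotic and DNA replication genes were positive in 74 of 85 tested loci with a median of 0.25, and 1 lay entirely higher (1.18%, all loci 3.55%). Without HET 3, 59 of the 85 lay entirely higher (69.4%, all loci 9.13%), the median was 0.58 and 39 had an unadjusted edgeR p under 0.05. Cytosolic ribosomal proteins were positive in 63 of 71 with 1 entirely higher (median 0.10), and with 13 entirely higher without HET 3 (18.3%). None of 37 proteasome subunits separated the groups over the 7 libraries, and 20 lay entirely lower without HET 1 (54.1%, all loci 14.8%). The libraries left out for these lists were picked after the counts were seen, and list members are not replicates, so these counts are descriptions only. Nrf2 and glutathione genes gave 1 and 1 of 53, glycolysis and hypoxia genes 2 and 1 of 52, Wnt signalling 3 and 0 of 51, and cytochrome P450s 0 and 2 of 38. Sex-biased kidney genes gave 0 and 0 of 30 with a median of -0.33, which ran from -0.715 to -0.105 as single libraries were left out. Adipose markers overlapped in all 8 tested loci, with 6 positive and a median of 1.73. Their summed level was 164 to 258 CPM in HET and 106 to 207 CPM in KO, and KO 4 stood out for the lipid droplet gene Plin1, with 2.13 CPM against 0.0501 to 0.275 CPM in the other KO libraries.

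Differences in the ranked loci were unevenly shared among libraries. KO 1 was the library farthest from HET in 284 of the 423 higher loci (67.1%) and 195 of the 418 lower loci (46.7%). HET 1 was the HET library nearest to KO in 238 (56.3%) and 199 (47.6%). The medians of the Toll-like receptor and NF-kB list and of the actin list were 0.118 and 0.115 without KO 1. Leaving out KO 1 left 582 loci entirely higher and 581 lower of 14360 tested, 4.05% each. With fewer libraries chance alone separates more loci.

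The libraries with and without Y-linked reads share no library, and loci chosen in each set were followed in the other. The choice was made among loci with a mean of at least 1 CPM over all 7 libraries, scaled together. The followed set thus had a part in the choice, and loci that vary together are not separate cases. Loci at least 2-fold higher in KO without overlap among libraries with Y-linked reads numbered 159. Of these, 133 (83.6%) had a positive log2 difference in the other set, against 52.0% of all loci. Both KO 1 and KO 2 lay above HET 1 in 84 of the 159 (52.8%, all loci 32.5%). In the reverse direction 144 of 163 (88.3%) had a positive difference, against 43.9% of all loci, and 95 lay entirely higher (58.3%, all loci 18.7%). The median log2 difference in the followed set was 0.62 and 0.63. For lower loci the picture was weaker, with 20 of 30 (66.7%, all loci 48.0%) and 51 of 84 (60.7%, all loci 56.1%). Of those 84, 14 lay entirely lower in the followed set (16.7%), below the 27.8% of all loci. Medians of some lists differed between the sets with and without Y-linked reads. They were 0.49 and -0.10 for the collagen list, 0.45 and 0.14 for the elastic fibre list and 0.34 and -0.01 for developmental nephron genes. The acute-phase list (0.37 and 0.52) and the chemokine list (0.62 and 0.82) were higher without such reads. The set without Y-linked reads holds HET 1 alone as its control, so these are counts and medians with no test. A test of whether the difference itself depends on Y-linked status, in which HET 1 is assumed to vary like the other libraries, gave 0 of 14380 loci in edgeR (lowest adjusted p = 0.855, with 704 at an unadjusted p under 0.05) and says nothing of whether the sets are alike.

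**Figure D5:**
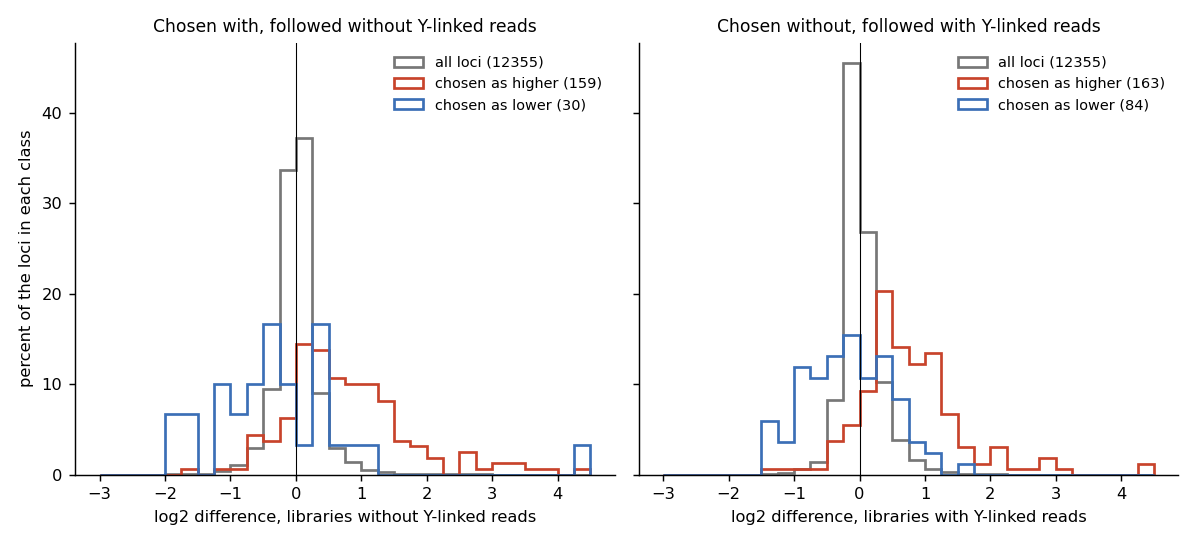
Histograms give the percent of loci by log2 difference between KO and HET in the set where the chosen loci were followed. They cover all 12355 loci (grey), loci chosen as at least 2-fold higher (red, 159 and 163) and at least 2-fold lower (blue, 30 and 84). Values past the ends of the axis are drawn in the end bins. The red curves lie right of zero in both panels and the blue curves spread to both sides of it.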

How the data were processed

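Per the labels' protocols, total RNA (150 ng) was extracted with the miREASY kit and made into libraries with the TruSeq RNA v2 kit, which keeps no strand. Per the submitters' processing notes, FastQC, STAR, SAMtools, HTSeq 0.5.4p5, limma and mm10 were used. Which step each served is not stated there. The authors deposited estimated counts per gene symbol for each library (24914 rows, in steps of 0.5), not normalized, which were rounded to whole numbers. The authors also deposited a log2 matrix, used as an alternative. Unnamed loci held 1.35% of counts. Rows with identical counts in all 11 libraries and a total of at least 50 were joined (1513 pairs, 1502 joint loci tested).

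Loci were filtered with filterByExpr and compared by quasi-likelihood tests of edgeR 4.0.16 under R 4.3.3 (robust, TMM, two-sided, Benjamini-Hochberg at 0.05) on 11 libraries in 3 groups. The biological coefficient of variation was 0.215, and SE is the size of the log2 difference over the root of F. Y-linked status is Ddx3y above 5 CPM. Scripts were tested on simulated data. Coordinates come from GENCODE vM21 and promoters from RefSeq, both on GRCm38, which mm10 names.

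Genes and lists were chosen with earlier results of these data known. The rule named the 20 loci per direction with the smallest p and the 10 with the largest gap among loci of at least 1 CPM without overlap, the 2 members with the smallest p of each list of at least 5 tested loci at 2 times the background share, Col4a1 to Col4a6 and Ddx3y (99 loci). Other list members named in the text were chosen after their values were seen. A few genes are not reported here. Families are symbols sharing the letters before the first digit. Alternatives covered joining, libraries, tool, values, scaling, filter, Y-linked status, replicate block and leaving out each library.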

Additional observations from a re-analysis of the deposited data

Results flagged for a closer look

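In 98 named loci with values in KO, the highest or lowest of the 4 KO libraries was set against the others by Dixon's ratio of gap to range. It stood apart in 15 loci, where chance gives about 1 in 20. KO 1 was high for Dcdc2a (74.3 CPM), Timp1 (15.3 CPM), Cd44 (17.2 CPM), Ankrd1 (12.7 CPM), Krt20 (6.61 CPM), Krt8 (139 CPM), Cxcl5 (1.74 CPM), Aldh18a1 (11.8 CPM), a proline synthesis enzyme, Gpnmb (2.66 CPM), a macrophage lysosomal glycoprotein, and Cd14 (27.8 CPM). KO 1 was low for Aspa (90.5 CPM). KO 2 was high, toward HET, for Ddo (57.8 CPM), Slc22a5 (292 CPM) and Nnt (300 CPM), the mitochondrial transhydrogenase, and low for Col4a5 (163 CPM).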

How the results depend on the processing

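Loci past the adjusted threshold numbered 72 higher and 12 lower with DESeq2 1.42.0, 3 higher with Y-linked status as a covariate, 1 higher in the authors' log2 matrix and 0 in the other alternatives except those named next. Leaving out libraries gave 0 to 2 higher (2, Npy6r and Lcn2, without KO 2) and 0 lower. With the replicate block 2 were called higher, Cdkn1c and Fcrls, and 614 lower loci had an unadjusted p under 0.05. Deviations of same-numbered libraries correlated at 0.63, -0.44 and 0.39, and those of differently numbered libraries at -0.70 to 0.54. So few values cannot decide whether the shared replicate numbers pair the samples.

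At an unadjusted p under 0.05 counts were 939 higher and 163 lower by library size alone (85.2% higher, against 60.7%), 374 and 247 at a mean of at least 5 CPM, where fewer loci are tested, and 654 lower with the Y-linked covariate. Leaving out libraries gave 327 to 1106 higher and 119 to 764 lower, with 1106 and 764 without HET 1, 365 and 119 without HET 2 and 327 and 210 without KO 1. Loci without overlap were 830 higher and 191 lower by library size alone (81.3% higher, against 52.5%) and 319 and 307 at 5 CPM. Leaving out libraries gave 517 to 1747 higher and 381 to 2169 lower, in part because fewer libraries overlap less. The cause of the other shifts was not tested.

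Named loci kept sign and side of the threshold in 2289 values, and 49 passed it. None of the 3 that changed sign was called, with main log2 differences of 0.0194 (Col4a5), 0.2778 (Col4a6) and -0.5213 (Ddx3y). Col4a5 was -0.0395 within libraries without Y-linked reads and ran from -0.0216 to 0.1192 over libraries left out (-0.0017 without HET 1, -3.8e-05 without KO 1, -0.0055 without KO 3), Col4a6 was -0.1468 and -0.0908 to 0.598 in the same way, and Ddx3y ran from -1.1282 to 0.0243, positive without HET 3. List medians stayed within 1 SD of the main value in 1172 values and moved further in 60, and counts of list members without overlap without each library in turn, an alternative chosen after seeing the data, stayed within 1.5 times in 501 values and moved in 283. Depth limits loci under 1 CPM, where HET libraries held a few reads each.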

Other observations

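Dio2, Smoc2, C7 and Abca1, outside the naming rule, were looked up after the plots and the DESeq2 calls were seen, and they are given as values. Dio2, the deiodinase that activates thyroid hormone inside cells, had the widest difference of the ranked loci at 4.78 ± 1.37 on the log2 scale, with 0.172, 0.384 and 0.133 CPM in HET and 9.96, 0.601, 13.8 and 3.18 CPM in KO. The KO libraries spread widely, KO 2 lay nearest to HET, and the edgeR adjusted p was 0.508. Smoc2, a matrix-associated calcium-binding protein, read 16.2, 8.45 and 10.5 CPM against 56.0, 23.7, 19.96 and 36.1 CPM. C7, a component of the terminal complement pathway, read 9.61, 7.47 and 6.98 CPM against 27.7, 13, 12.4 and 20.9 CPM. Abca1, which exports cholesterol, read 46.5, 34.1 and 39.5 CPM against 142, 64.7, 71.1 and 76.8 CPM. For Smoc2 and C7, KO 1 was highest and KO 4 next, the order seen for Col3a1 and Col1a1.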
